A study of Danio rerio with 4 samples.

Results

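The chemokine system was examined in bulk RNA-seq data from cryoinjured zebrafish ventricles of wild types and *cd74a; cd74b* double mutants. Its genes were taken by symbol from the deposited annotation, as every gene whose name begins with cxcl, cxcr, xcr or ackr, or with ccl or ccr followed by a digit. This rule uses names and no measured value, and it gave 69 of the 20984 genes in the table. They comprise 27 CC ligand genes, 16 CXC ligand genes, 8 CXC receptor genes, 14 CC or XC receptor genes and 4 atypical receptor genes.

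Each of the 4 libraries came from a single ventricle of an adult fish that had received a cryoinjury, in which a cold probe kills part of the ventricular wall. There were 2 wild types and 2 *cd74a; cd74b* mutants, all of the AB strain, and fish between 3 and 12 months of age were used in the study. The mutants carry the alleles bns454 of *cd74a* and bns456 of *cd74b*, small CRISPR-Cas9 deletions in the part that encodes the MHC class II interaction domain of the invariant chain, in every cell of the animal. Wild types and mutants were progeny of crosses between fish of those genotypes and double heterozygotes, so the genotypes also differ by family. The study places the collection at 120 hours post-cryoinjury (hpci), whereas the design text of the series gives 7 days. One fish of each sex was used per genotype, but which library came from which was not given, so sex was not used. With 2 ventricles per genotype and no uninjured ventricle, the data compare genotypes after injury only.

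Chemokines are small secreted proteins that guide migrating cells along gradients, and most of them signal through receptors that couple to G proteins of the Gi class. CXC chemokines such as Cxcl8 attract neutrophils in many vertebrates, Cxcl12 retains and guides cells that carry Cxcr4, and atypical receptors (Ackr) take up chemokines without G protein signalling and thereby limit how far they reach. In the injured heart, chemokines guide leukocytes into the damaged wall, and Cxcl12 and its receptors also take part in the growth of coronary vessels in zebrafish. Fish have large families of CC chemokines that arose by tandem duplication, and for the ccl33, ccl34, ccl35, ccl36, ccl38, ccl39 and ccl44 genes no role is stated here.

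The values are normalized counts, that is, reads per gene divided by a size factor for each library and rounded to whole numbers. They summed to between 4123819 and 4382529 per library. They are not corrected for gene length, so levels were compared between ventricles and not between genes. *cd74b* had 622 and 678 normalized counts in wild types against 131 and 117 in mutants. *cd74a* had 837 and 913 in wild types against 408 and 401 in mutants. Both targeted genes were thus lower in the libraries labelled mutant. Small deletions leave most of a transcript to be counted, so these levels check the labels only in part. The 8 listed cardiomyocyte genes summed to 14915 and 15466 in wild types against 12884 and 14533 in mutants, and none of them was called.

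The chemokine genes together took between 0.125% and 0.178% of the normalized counts of a library. Their sum was 5364 and 7350 in wild types against 6049 and 5728 in mutants, so the mutants lay between the wild types. Of the 69 genes, 57 were above 0 in all 4 ventricles and 12 were at 0 in at least 1 of them. *cxcl11.1*, *cxcl11.8*, *xcr1b.1* and *ccl34b.3* were at 0 in both mutants, and 0 genes of the system were at 0 in both wild types. The 46 genes with a mean of at least 10 normalized counts over the 4 ventricles were tested, and 23 were described only. Of those 46, *cxcr3.1*, *cxcr1*, *cxcl8b.1* and *ccl36.1* had a mean under 10 in the mutants and passed this minimum through their level in the wild types. As few as 23 of the 69 genes had a mean of at least 50, so most of the system was measured at a low level. The genes lie on 17 chromosomes, and 46 of the 69 have another gene of the system within 1 Mb, in 14 groups. The spans of 11 genes overlap another listed gene, and the authors excluded reads that fell on more than 1 gene.

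The 46 genes were compared between genotypes with limma (a linear model whose spread estimates are moderated across all genes) on the log2(normalized count + 1) scale. The fit covered the 16065 genes of the table that reached the minimum mean. A gene was called higher or lower where its adjusted p-value was under 0.05 and its log2 fold change was at least 0.59 in size. In a table of rounded, normalized values the fold changes of low genes are understated on this scale. An exact permutation test of 2 against 2 ventricles cannot give a p-value below 0.333 and was not used.

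Among the tested genes, 3 were lower in the mutants, namely the ligand gene *cxcl8a* and the receptor genes *cxcr3.1* and *cxcr1*, and 1 was higher, the ligand gene *ccl39.5*. The 3 lower genes are 6.52% of the 46, beside 7.44% of all tested genes. The 1 higher gene is 2.17%, beside 2.70% of all tested genes. These shares lie near the background, so the counts by themselves set the chemokine genes apart from other genes in neither direction. The median log2 fold change (mutant minus wild type) of the 46 genes was -0.12, beside 0.03 for all tested genes. Leaving out any 1 ventricle, or testing all 20984 genes without the minimum mean, left 0 calls among all genes, while the direction of the 4 genes stayed the same. Of the 3 lower genes, *cxcr3.1* and *cxcr1* had passed the minimum through the wild types alone. Their means therefore had to be lower in the mutants, and their calls are no separate support for a difference.

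Without adjustment, 13 of the 46 genes (28.3%) had a limma p-value under 0.05, beside 29.0% of all tested genes. Of the 46, 10 were lower in the mutants at this level, beside 17.2% of all tested genes, and the others of the 13 were higher. Among the 10 are *cxcr3.1*, *cxcr1* and *ccl36.1*, which passed the minimum mean through the wild types alone, so their means had to be lower. In 16 genes (34.8%, background 29.4%) both mutants lay below both wild types, in 6 genes (13.0%, background 30.5%) both lay above, and in 24 genes the genotypes overlapped. The 16 also include *cxcr3.1*, *cxcr1* and *ccl36.1*, so neither count of lower genes is separate support for a difference. By role, the median log2 fold change was -0.24 for the CXC ligands, 0.07 for the CC ligands, -0.50 for the CXC receptors, -0.29 for the CC or XC receptors and 0.14 for the atypical receptors. The medians of the CXC ligands, the CXC receptors and the CC or XC receptors thus lay below 0 and those of the CC ligands and the atypical receptors above it, a description over few genes that was not tested.

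**Figure D1:**
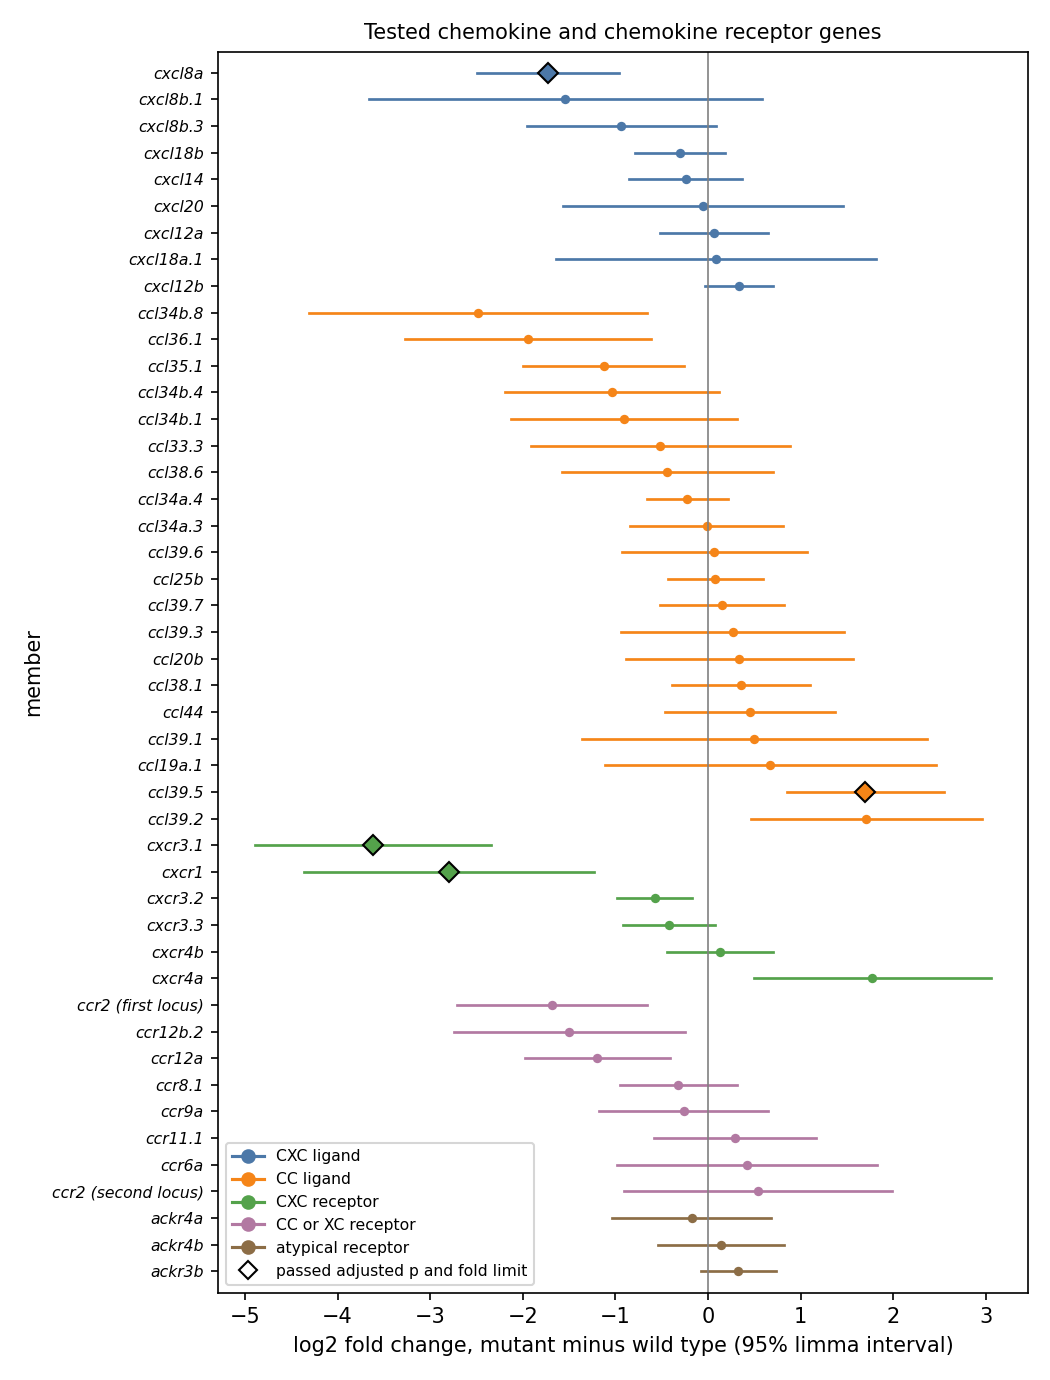
Log2 fold change (mutant minus wild type, x axis) of the tested chemokine and chemokine receptor genes, 1 row for each gene, coloured by role, with the 95% limma interval as a line and diamonds for the 4 called genes. *cxcl8a*, *cxcr3.1* and *cxcr1* lie to the left of 0, *ccl39.5* lies to the right, and most other intervals include 0.

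Cxcl8 is the ligand for which Cxcr1 and Cxcr2 are named as receptors, and in zebrafish it draws neutrophils to wounds. *cxcl8a* (ENSDARG00000104795, chromosome 1 from 14253118 to 14254166, plus strand, danRer11), annotated as interleukin-8, had 88 and 84 normalized counts in wild types against 29 and 22 in mutants. The 2 ventricles of each genotype lay close together and the genotypes did not overlap. The log2 fold change was -1.73 (standard error 0.33, 95% interval -2.50 to -0.96, limma adjusted p-value 0.0228), and it lay between -1.92 and -1.54 when single ventricles were left out.

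The other 2 listed *cxcl8* genes, on chromosome 7, did not pass the test and overlapped between genotypes. *cxcl8b.3* had 70 and 149 normalized counts in wild types against 70 and 40 in mutants, a log2 fold change of -0.94 (limma standard error 0.43 and adjusted p-value 0.204). Mutant 1 equalled wild type 1 in this gene, and wild type 2 stood above the other ventricles. *cxcl8b.1* had 10 and 29 in wild types against 12 and 2 in mutants, a log2 fold change of -1.54 (limma standard error 0.91 and adjusted p-value 0.302). This gene passed the minimum mean through the wild types alone, so its mean had to be lower in the mutants. The 3 genes summed to 168 and 262 normalized counts in wild types against 111 and 64 in mutants. This sum includes the called *cxcl8a*, so it is no separate result for the other 2 genes.

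*cxcr1* (chromosome 9 from 48085039 to 48091741, plus strand), a Cxcl8 receptor gene, had 21 and 32 normalized counts in wild types against 4 and 2 in mutants. The genotypes did not overlap, and the mutant values rest on very few reads. The gene passed the minimum mean through the wild types alone, so its mean had to be lower in the mutants. *cxcr1* thus had a log2 fold change of -2.80 (standard error 0.67, 95% interval -4.37 to -1.23, limma adjusted p-value 0.0424), with a range of -3.17 to -2.43 when single ventricles were left out. This adjusted p-value lay just under the threshold, and it rose to 0.0885 under the other settings that kept all ventricles and to 0.296 at the most without 1 ventricle. The neighbouring *cxcr2*, which encodes the other Cxcl8 receptor, had 4 and 1 normalized counts in wild types against 1 and 1 in mutants and was too low to test. *cxcl18b*, which in zebrafish attracts neutrophils through Cxcr2, had 189 and 252 in wild types against 179 and 174 in mutants, a log2 fold change of -0.30 (limma adjusted p-value 0.370).

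The ventricle is a mixture of cells, and in bulk RNA fewer cells of a type and less RNA per cell cannot be told apart. Of 10 listed genes that mark neutrophils, 7 were tested and 2 were lower in the mutants (background 7.44%), and the sum of the 10 was 1304 and 1168 in wild types against 888 and 847 in mutants. *mpx*, the myeloperoxidase gene of neutrophils, had 266 and 155 normalized counts in wild types against 74 and 63 in mutants (limma adjusted p-value 0.0235). *mmp9*, with 293 and 179 in wild types against 216 and 232 in mutants, overlapped between genotypes. The part of neutrophils in the lower *cxcr1* and *cxcl8a* was not tested.

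Cxcr3 is the receptor of Cxcl11-type ligands on T cells and macrophages, and zebrafish carry 3 copies of its gene in tandem on chromosome 16, all of which were tested. In zebrafish, Cxcr3.2 mediates macrophage recruitment and Cxcr3.3 acts as a ligand scavenger. The 3 copies lie within 41.2 kb. *cxcr3.1* (11853212 to 11859309, minus strand) had 58 and 114 normalized counts in wild types against 8 and 4 in mutants. Both mutants lay far below both wild types, which themselves differed by about a factor of 2. Its log2 fold change was -3.62 (standard error 0.54, 95% interval -4.89 to -2.35, limma adjusted p-value 0.0132), a 12.3-fold difference and the lowest fold change among the 46 tested genes. It lay between -4.10 and -3.14 when single ventricles were left out.

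*cxcr3.2* (11818126 to 11825303, plus strand) had 400 and 347 normalized counts in wild types against 234 and 266 in mutants. Its log2 fold change of -0.58 (standard error 0.17, 95% interval -0.98 to -0.17) missed both thresholds, with a limma adjusted p-value of 0.0742. *cxcr3.3* (11834516 to 11840134, plus strand) had 180 and 192 in wild types against 156 and 123 in mutants, a log2 fold change of -0.42 (limma standard error 0.21 and adjusted p-value 0.233). In all 3 copies both mutants lay below both wild types (29.4% of all tested genes), by different amounts. Whether the copies differ from each other in their fold change was not tested. The interval of *cxcr3.1* lies below those of *cxcr3.2* and *cxcr3.3* without overlap, which is no test of a difference. Unlike the other copies, *cxcr3.1* had passed the minimum mean through the wild types alone, so its mean had to be lower in the mutants.

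Around *cxcr3.1*, 2 of the 10 other tested genes within 200 kb were also lower, beside 7.44% of all tested genes. Within the same distance, 0 of 9 were called around *cxcr1*, 1 of 6 was higher around *cxcl8a* and 1 of 11 was lower around *ccl39.5*. The genes near *cxcr3.1* are named here after their values were seen. *cd4-1*, the co-receptor gene of helper T cells that some macrophages of zebrafish also express, lies 52.6 kb away and had 171 and 162 normalized counts in wild types against 21 and 19 in mutants (log2 fold change -3.00, limma adjusted p-value 0.00653). *tlr21*, a Toll-like receptor gene 64.1 kb away, had 205 and 127 in wild types against 67 and 46 in mutants (log2 fold change -1.52, limma adjusted p-value 0.0307). A further neighbour, *ceacam1*, had 0 and 31 in wild types against 54 and 46 in mutants and was not called. All of these genes lie on chromosome 16, and the targeted genes lie on chromosomes 14 and 21. The genotypes also differ by family. Whether position or family plays a part in the values was not tested.

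The listed ligands of Cxcr3 were too low for the test. *cxcl11.1* had 5 and 20 normalized counts in wild types against 0 and 0 in mutants. *cxcl11.5* had 1 and 24 in wild types against 0 and 1 in mutants. *cxcl11.8* had 1 and 4 in wild types against 0 and 0 in mutants. In all 3 genes the highest value was that of wild type 2. The symbol *cxcl11.6* stands for 2 overlapping genes, which had 2 and 5 and then 3 and 11 normalized counts in the wild types, beside 3 and 0 and then 3 and 1 in the mutants. Summed over the 5 genes, there were 12 and 64 normalized counts in wild types against 6 and 2 in mutants, so most of the *cxcl11* signal came from a single ventricle. *cxcl20*, which lies in the same group of genes on chromosome 5, had 17 and 65 in wild types against 24 and 43 in mutants and overlapped (log2 fold change -0.06, limma adjusted p-value 0.964).

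Markers of the cells that carry Cxcr3 were counted beside these values. Of 10 macrophage genes, all tested, 3 were lower (background 7.44%), and both mutants lay below both wild types in all 10 (background 29.4%). Their sum was 6153 and 5877 in wild types against 4077 and 4056 in mutants. *mpeg1.1*, the perforin-like gene of macrophages, had 900 and 920 normalized counts in wild types against 548 and 553 in mutants. Of 9 T cell genes, 6 were tested and 1, *cd4-1*, was lower (background 7.44%). Both mutants also lay below both wild types in *il2rb* (28 and 46 in wild types, 21 and 11 in mutants), which was not called. The other 4 overlapped between genotypes, among them the kinase genes *lck* (5 and 28 in wild types, 16 and 15 in mutants) and *zap70* (11 and 50 in wild types, 31 and 29 in mutants). The part of these cells in the values of the Cxcr3 genes and of their ligands was not tested.

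None of the genes of Cxcl12 and its receptors passed the test. *cxcl12a* (chromosome 13) had 595 and 1040 normalized counts in wild types against 818 and 826 in mutants, so the mutants lay between the wild types (log2 fold change 0.06, 95% interval -0.52 to 0.65). *cxcl12b* (chromosome 22) had 660 and 676 in wild types against 935 and 755 in mutants (log2 fold change 0.33, 95% interval -0.04 to 0.70, limma adjusted p-value 0.212). Cxcl12b guides coronary vessel growth in zebrafish, and both mutant values of its gene lay above the wild types without passing the test.

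*cxcr4b* (chromosome 9), the receptor through which Cxcl12a guides the lateral line primordium of zebrafish, had 322 and 522 normalized counts in wild types against 407 and 495 in mutants (log2 fold change 0.13, 95% interval -0.44 to 0.70). *cxcr4a* (chromosome 6), the copy known from growing coronary vessels, had 8 and 22 in wild types against 42 and 55 in mutants. The log2 fold change of *cxcr4a* was 1.77 (standard error 0.55, 95% interval 0.49 to 3.05), the highest among the 46 genes with all ventricles, but its limma adjusted p-value of 0.0809 did not pass. The mutants lay above both wild types, at a low level, and the value fell to 1.09 without wild type 1 and rose to 2.45 without wild type 2.

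*ackr3b* (chromosome 6), which removes Cxcl12a in zebrafish, had 238 and 284 normalized counts in wild types against 335 and 317 in mutants (log2 fold change 0.32, 95% interval -0.08 to 0.73, limma adjusted p-value 0.257). *ackr3a* had 1 and 8 in wild types against 10 and 3 in mutants and was not tested. The intervals of *cxcl12a*, *cxcl12b*, *cxcr4b* and *ackr3b* include 0, which does not show that these genes were equal between genotypes. Summed over 9 listed endocardial and endothelial genes, there were 9381 and 9306 normalized counts in wild types against 8710 and 8635 in mutants. Of these, the receptor gene *kdr* was lower, with 1045 and 1000 in wild types against 452 and 419 in mutants, and the adhesion gene *pecam1* was higher, with 285 and 259 in wild types against 542 and 529 in mutants.

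**Figure D2:**
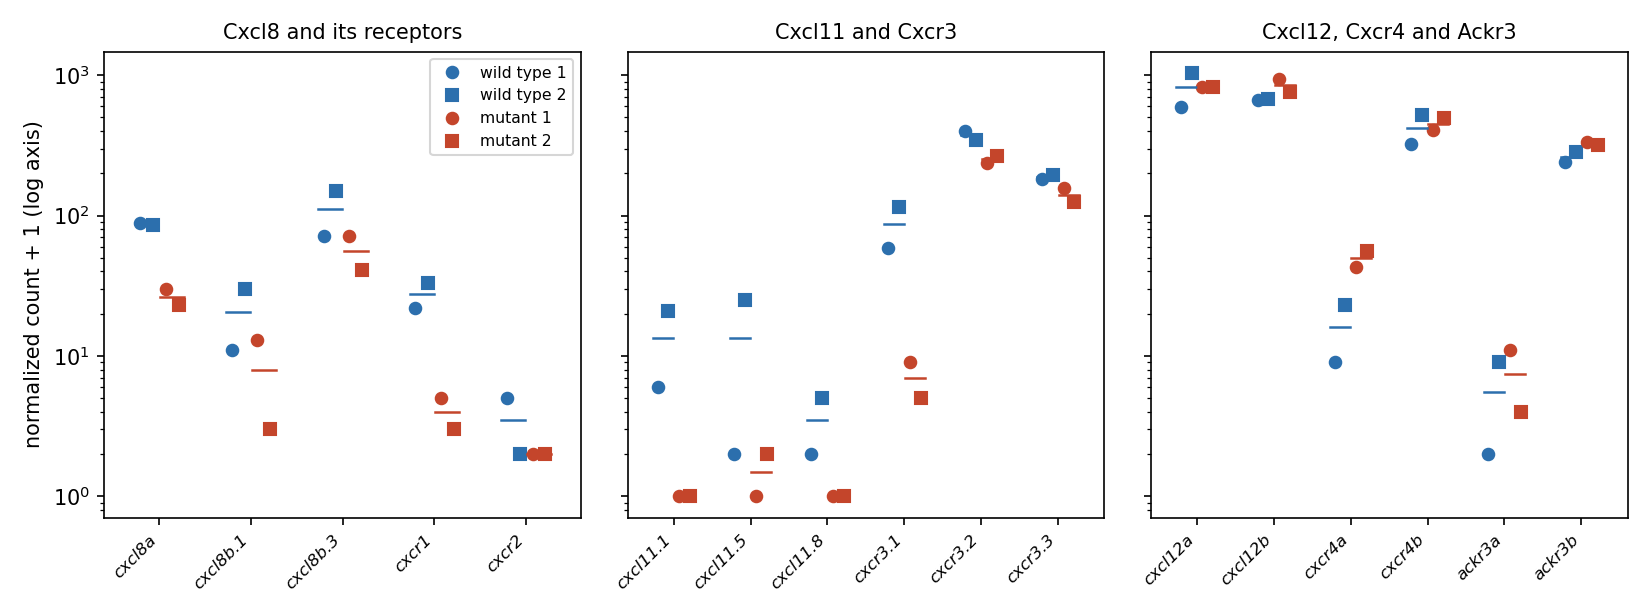
Normalized count + 1 (y axis, log scale) of each ventricle for the genes of 3 ligand and receptor groups, with wild types in blue, mutants in red, circles for replicate 1, squares for replicate 2 and short lines for the mean of the genotype. *cxcl8a*, *cxcr1* and *cxcr3.1* are separated by genotype, *cxcl11.1* and *cxcl11.5* are highest in wild type 2, and *cxcl12a* and *cxcr4b* overlap.

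The remaining CXC genes did not pass the test or were too low for it. *cxcl14*, a chemokine that epithelia of mammals make at rest, had 108 and 161 normalized counts in wild types against 117 and 106 in mutants (log2 fold change -0.24, limma adjusted p-value 0.577). *cxcl18a.1* had 5 and 17 in wild types against 10 and 10 in mutants (log2 fold change 0.08, limma adjusted p-value 0.954). Both overlapped between genotypes. *cxcl19* had 5 and 12 in wild types against 0 and 4 in mutants, and *cxcl32b.1* had 3 and 13 in wild types against 5 and 4 in mutants. *cxcr5*, the receptor that brings B cells into follicles in mammals, had 0 and 23 in wild types against 1 and 1 in mutants, so wild type 2 held nearly all of its signal. The B cell receptor gene *cd79a* was also highest in that ventricle, with 3 and 50 in wild types against 4 and 5 in mutants. Of the 3 tested B cell genes, 2 were higher in wild type 2 than in wild type 1. The exception, *blnk*, had 157 and 109 in wild types against 63 and 45 in mutants. It was the 1 B cell gene called lower, beside 7.44% of all tested genes. The 5 listed B cell genes summed to 304 and 364 in wild types against 185 and 157 in mutants, and their part in *cxcr5* was not tested.

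Among the CC ligands, 20 of 27 genes were tested. Of these, 1 (5.00%) was higher, beside 2.70% of all tested genes, and 0 were lower, beside 7.44%. *ccl39.5* (chromosome 25 from 12981431 to 12982193, minus strand) had 29 and 54 normalized counts in wild types against 113 and 151 in mutants. The genotypes did not overlap, and each genotype spread by less than a factor of 2. Its log2 fold change was 1.70 (standard error 0.36, 95% interval 0.85 to 2.55, limma adjusted p-value 0.031), a 3.24-fold difference, and single ventricles moved it between 1.26 and 2.13 when left out. The call was lost without the mean-variance trend of limma, where the adjusted p-value was 0.0874.

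*ccl39.5* belongs to a row of 8 ligand genes that spans 209 kb of chromosome 25, all of them tested. *ccl39.2* (13017489 to 13029702), which encloses *ccl39.1*, had 10 and 29 normalized counts in wild types against 53 and 64 in mutants, and its log2 fold change of 1.71 (limma standard error 0.53) did not pass, with an adjusted p-value of 0.0828 and a range of 0.98 to 2.43 when single ventricles were left out. Reads that overlapped both *ccl39.1* and *ccl39.2* were excluded by the authors, and *ccl39.1* itself had 5 and 17 in wild types against 23 and 8 in mutants (log2 fold change 0.50, limma adjusted p-value 0.714). The values of this pair are therefore uncertain, as are those of any near-identical copies, since reads aligning to several places were excluded too.

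The other *ccl39* genes overlapped between genotypes. *ccl39.3* had 15 and 35 normalized counts in wild types against 25 and 31 in mutants (log2 fold change 0.27, limma adjusted p-value 0.767). *ccl39.6* had 21 and 29 in wild types against 28 and 24 in mutants (log2 fold change 0.07, limma adjusted p-value 0.932). *ccl39.7* had 55 and 67 in wild types against 65 and 70 in mutants (log2 fold change 0.15, limma adjusted p-value 0.763). Within the row, high values in the mutants were thus seen in *ccl39.5* and *ccl39.2*. Summed over the 6 *ccl39* genes, there were 135 and 231 normalized counts in wild types against 307 and 348 in mutants.

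The 2 further genes of the row pointed the other way. *ccl35.1* had 72 and 127 normalized counts in wild types against 52 and 36 in mutants, without overlap, and its log2 fold change of -1.13 (limma standard error 0.37 and adjusted p-value 0.0954) did not pass. *ccl33.3* had 13 and 20 in wild types against 8 and 15 in mutants (log2 fold change -0.51, limma adjusted p-value 0.605). Neighbouring ligand genes of the same row thus had fold changes of both signs.

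On chromosome 24, the 5 *ccl34b* genes had low values in the mutants, and none of the 3 tested ones was called. *ccl34b.8* had 65 and 70 normalized counts in wild types against 29 and 4 in mutants, so the mutants were farther apart than the wild types. The log2 fold change was -2.48 (limma standard error 0.78 and adjusted p-value 0.0841), but -1.19 without mutant 2 and -3.78 without mutant 1. *ccl34b.4* had 25 and 51 in wild types against 15 and 19 in mutants (log2 fold change -1.04, limma adjusted p-value 0.213). *ccl34b.1* had 51 and 22 in wild types against 16 and 19 in mutants (log2 fold change -0.91, limma adjusted p-value 0.289). In each of these 3 genes both mutants lay below both wild types, as they did in 29.4% of all tested genes. *ccl34b.9*, with 13 and 6 in wild types against 5 and 2 in mutants, and *ccl34b.3*, with 0 and 5 in wild types against 0 and 0 in mutants, were too low to test. The 5 genes summed to 154 and 154 in wild types against 65 and 44 in mutants.

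The *ccl34a* genes of chromosome 2 were not called either. Both mutants lay below both wild types in *ccl34a.4*, as in 29.4% of all tested genes, and *ccl34a.3* overlapped. *ccl34a.4* had 195 and 187 normalized counts in wild types against 158 and 169 in mutants (log2 fold change -0.22, limma adjusted p-value 0.463), and *ccl34a.3* had 44 and 35 in wild types against 36 and 42 in mutants (log2 fold change -0.01, limma adjusted p-value 0.984). *ccl36.1* on chromosome 7 was low throughout, with 25 and 23 normalized counts in wild types against 5 and 6 in mutants. The ventricles of a genotype were nearly equal in *ccl36.1*, and its log2 fold change of -1.95 (limma standard error 0.57 and adjusted p-value 0.0698) did not pass. *ccl36.1* reached the minimum mean through the wild types alone, so its mean had to be lower in the mutants.

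The tested ligands of homeostatic receptors overlapped between genotypes. *ccl25b*, a paralogue of the *ccl25* ligand genes that direct thymus seeding through Ccr9, had 151 and 206 normalized counts in wild types against 179 and 194 in mutants (log2 fold change 0.08, limma adjusted p-value 0.840). *ccl19a.1*, of the ligand family of Ccr7, had 4 and 16 in wild types against 17 and 11 in mutants (log2 fold change 0.67, limma adjusted p-value 0.596). *ccl20b*, of the ligand family of Ccr6, had 21 and 20 in wild types against 17 and 40 in mutants (log2 fold change 0.34, limma adjusted p-value 0.706). In each of these genes at least 1 mutant lay within or below the range of the wild types. *ccl20a.3* and *ccl25a* had at most 5 normalized counts in any ventricle, and *ccl19b*, with 0 and 1 in wild types against 2 and 3 in mutants, was too low to test.

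The remaining *ccl38* and *ccl44* genes complete the tested CC set. *ccl38.1* on chromosome 20 had 53 and 43 normalized counts in wild types against 70 and 54 in mutants (log2 fold change 0.36, limma adjusted p-value 0.494). *ccl38.6*, which encloses *ccl38a.4* and *ccl38a.5*, had 19 and 30 in wild types against 15 and 20 in mutants (log2 fold change -0.44, limma adjusted p-value 0.584). *ccl44* had 48 and 57 in wild types against 103 and 50 in mutants (log2 fold change 0.45, limma adjusted p-value 0.485), and mutant 1 alone stood above the other ventricles. *ccl38a.4* and *ccl38a.5* had at most 7 normalized counts in any ventricle.

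Of the 14 CC or XC receptor genes, 8 were tested and 0 were called, beside 7.44% lower and 2.70% higher of all tested genes. An unadjusted limma p-value under 0.05 was reached by 3 of them (37.5%), beside 29.0% of all tested genes. All 3 were lower in the mutants, beside 17.2% of all tested genes. Ccr2 is the receptor through which monocytes are recruited in mammals, and its symbol is carried by 2 genes on chromosome 16. The first (ENSDARG00000079829, 8668519 to 8670413) had 105 and 50 normalized counts in wild types against 20 and 24 in mutants. The genotypes did not overlap, although the wild types differed by about a factor of 2. Its log2 fold change was -1.68 (standard error 0.44, 95% interval -2.71 to -0.66) with a limma adjusted p-value of 0.0531, just outside the threshold. This adjusted p-value lay between 0.0437 and 0.118 under the other settings that kept all ventricles. The second *ccr2* gene (ENSDARG00000105363, 8673636 to 8681178) had 8 and 23 in wild types against 18 and 23 in mutants (log2 fold change 0.54, limma adjusted p-value 0.599). The pair thus had values of opposite sign, of which neither was called.

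Both tested *ccr12* genes were also low in the mutants. *ccr12a* (chromosome 2) had 254 and 153 normalized counts in wild types against 109 and 67 in mutants, a log2 fold change of -1.20 (limma standard error 0.33 and adjusted p-value 0.0635). *ccr12b.2* (chromosome 24) had 76 and 57 in wild types against 13 and 39 in mutants, a log2 fold change of -1.50 (limma standard error 0.53 and adjusted p-value 0.114). In neither gene did the genotypes overlap (both mutants lay lower in 29.4% of all tested genes), and neither passed the test. *ccr12b.1*, beside *ccr12b.2*, had 6 and 5 in wild types against 8 and 11 in mutants and was not tested.

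The tested receptors for the homeostatic ligands overlapped between genotypes. *ccr9a*, of the Ccl25 receptor family, had 107 and 254 normalized counts in wild types against 122 and 154 in mutants (log2 fold change -0.27, limma adjusted p-value 0.688). *ccr6a*, of the Ccl20 receptor family, had 27 and 10 in wild types against 28 and 18 in mutants (log2 fold change 0.42, limma adjusted p-value 0.680). *ccr7*, the Ccl19 receptor gene that brings dendritic cells and T cells to lymph nodes in mammals, had 13 and 6 in wild types against 2 and 4 in mutants and was too low to test. Both mutants lay below both wild types in *ccr7*, at very few reads.

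*ccr8.1* had 80 and 100 normalized counts in wild types against 66 and 77 in mutants (log2 fold change -0.32, limma adjusted p-value 0.464). *ccr11.1* had 58 and 47 in wild types against 87 and 47 in mutants (log2 fold change 0.29, limma adjusted p-value 0.648). The former was lower in both mutants and the latter was higher in mutant 1 alone. *xcr1a.1*, of the family of the Xcl1 receptor that marks cross-presenting dendritic cells in mammals, had 2 and 9 in wild types against 3 and 3 in mutants. *xcr1b.1* had 1 and 3 in wild types against 0 and 0 in mutants. *ccr9b* and *ccr10* had at most 6 normalized counts in any ventricle.

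The Ackr4 receptors, which take up Ccl19, Ccl21 and Ccl25 in mammals, varied between wild types more than between genotypes. *ackr4b* (chromosome 24) had 611 and 1201 normalized counts in wild types against 1006 and 880 in mutants (log2 fold change 0.14, limma standard error 0.29 and adjusted p-value 0.790). *ackr4a* (chromosome 2) had 76 and 157 in wild types against 111 and 84 in mutants (log2 fold change -0.18, limma adjusted p-value 0.783). In both genes the mutants lay between the wild types.

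**Figure D3:**
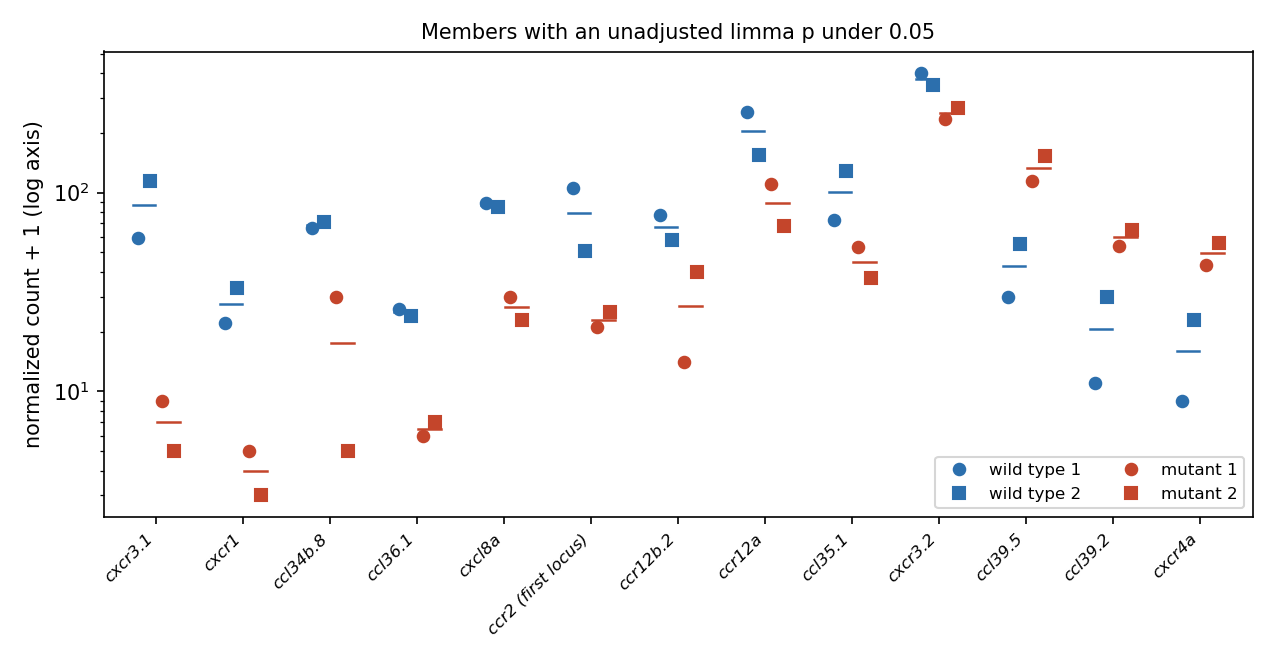
Normalized count + 1 (y axis, log scale) of each ventricle for the 13 genes of the system with an unadjusted limma p-value under 0.05, with wild types in blue, mutants in red, circles for replicate 1, squares for replicate 2 and short lines for the mean of the genotype. Because the 13 genes were picked by a p-value from these same values, the lack of overlap between genotypes in them is no separate result. Among all 46 tested genes, 24 overlapped. Of the 13, *cxcr3.1*, *cxcr1*, *cxcl8a* and *ccl39.5* passed both thresholds.

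The wild types differed from each other over the chemokine genes. Wild type 2 lay above wild type 1 in 33 of the 46 tested genes (71.7%), beside 47.4% of all tested genes, and the median log2 ratio of wild type 2 to wild type 1 was 0.51, beside -0.02. Mutant 2 lay above mutant 1 in 23 of the 46 genes, beside 49.2%. The wild types differed by at least 2-fold in 16 of the 46 genes (34.8%), beside 8.90% of all tested genes, and the mutants in 6 (13.0%), beside 7.66%. The tested chemokine genes had a median mean level of 52.4 normalized counts, beside 153 for all tested genes. The part of counting error, which is relatively larger at low levels, in the gap between the wild types was not tested. By role, wild type 2 was above wild type 1 in 8 of 9 CXC ligands, 14 of 20 CC ligands, 5 of 6 CXC receptors, 3 of 8 CC or XC receptors and 3 of 3 atypical receptors.

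In *cxcl12a*, *ackr4a* and *ackr4b* the gap between the wild types exceeded that between the genotype means. Sums of blood cell markers differed between the wild types in both directions. Wild type 2 held more of the listed erythrocyte genes, whose sum was 2600 and 5026 in wild types against 2052 and 2118 in mutants. The B cell genes were also higher there, with 304 and 364 in wild types. It held less of the thrombocyte genes (2497 and 1775 in wild types), the neutrophil genes (1304 and 1168) and the macrophage genes (6153 and 5877). T cell genes summed to 231 and 353 in wild types against 118 and 98 in mutants. Without *cd4-1* they summed to 60 and 191 in wild types against 97 and 79 in mutants, so the mutants then lay between the wild types. The part of blood cells in the gap between the wild types was not tested. The wild types were also of opposite sex, so sex cannot be told apart from other differences between these fish.

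**Figure D4:**
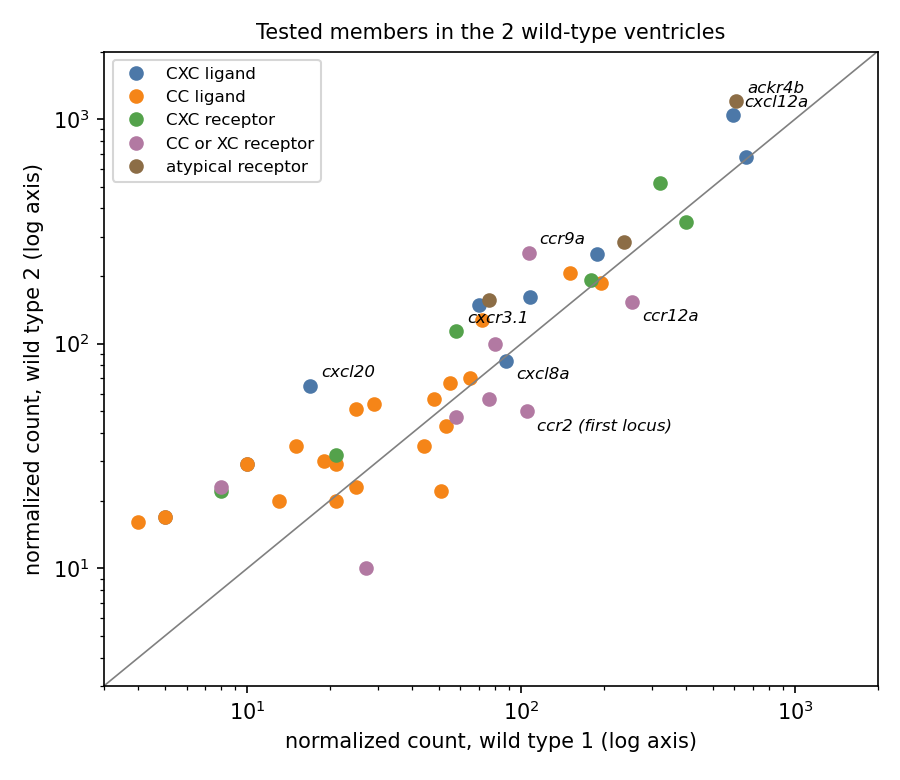
Normalized count in wild type 2 (y axis, log scale) against wild type 1 (x axis, log scale) for the 46 tested genes, coloured by role, with a diagonal line where both are equal. Points lie above the line for 33 of the 46 genes, among them *ackr4b*, *cxcl12a* and *cxcr3.1*, while *ccr12a* and the first *ccr2* gene lie below it.

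The proteins that carry the signal of chemokine receptors were examined with a list of G proteins, receptor kinases, arrestins, phosphoinositide 3-kinases, Rac regulators, Src and Jak kinases and chemokine-shedding proteases. Of 70 names on the list, 62 were found, on 64 genes, and 60 of these were tested. Of the 60, 12 (1 in 5) were lower in the mutants, beside 7.44% of all tested genes, and 1 (1.67%) was higher, beside 2.70%. Of the 12 lower genes, *grk6* and *stat5a* had a mean under 10 in the mutants and passed the minimum through the wild types alone, so they had to differ. Without the trend of limma 4 were lower and 0 were higher, and leaving out any 1 ventricle left 0 of either. The median log2 fold change of the list was -0.26, beside 0.03 for all tested genes. Both mutants lay below both wild types in 29 of the 60 genes (48.3%, background 29.4%). They lay above in 14 (23.3%, background 30.5%), and 17 overlapped. Many of these genes are used by leukocytes for other receptors too, and the list was put together with results of these data known.

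Receptor kinases mark activated chemokine receptors for arrestin binding. *grk3* had 195 and 148 normalized counts in wild types against 29 and 19 in mutants (log2 fold change -2.80, limma adjusted p-value 0.00833). *grk6* had 54 and 63 in wild types against 8 and 3 in mutants (log2 fold change -3.31, limma adjusted p-value 0.0173), and it entered the test through the wild types alone. Both were lower without overlap, whereas the arrestin gene *arrb2b*, with 1047 and 886 in wild types against 900 and 971 in mutants, had a log2 fold change of -0.04. The Gi genes *gnai1* (893 and 803 in wild types, 957 and 1053 in mutants) and *gnai2a* (942 and 1010 in wild types, 919 and 1036 in mutants) were not called.

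Of the genes that drive leukocyte movement below the receptor, the Rac GTPase gene *rac2* had 468 and 443 normalized counts in wild types against 242 and 237 in mutants (log2 fold change -0.92). The Rac activator gene *prex1* had 650 and 658 in wild types against 443 and 335 in mutants (log2 fold change -0.76). The kinase gene *pik3cg*, which acts below G proteins in neutrophils of zebrafish, had 517 and 527 in wild types against 314 and 272 in mutants (log2 fold change -0.83). All of these were called lower with ventricles that did not overlap, as were *pik3cd*, the Src family genes *hck* and *src*, *jak3*, *rgs19* and, through its level in the wild types alone, *stat5a*. Other genes of these classes were not called. The mutants lay higher in *tiam1a* (531 and 358 in wild types, 722 and 737 in mutants) and lower in *tiam1b* (347 and 209, then 153 and 110). *rac1a* overlapped (583 and 590 in wild types, 581 and 634 in mutants).

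Of the 4 listed protease genes of this kind, 1 was lower and 1 was higher, beside 7.44% and 2.70% of all tested genes. *adam17b* had 331 and 284 normalized counts in wild types against 41 and 25 in mutants (log2 fold change -3.22, limma adjusted p-value 0.00653), whereas *adam10b* had 226 and 165 in wild types against 348 and 435 in mutants (log2 fold change 1.01, limma adjusted p-value 0.0312). *adam17a*, with 867 and 702 in wild types against 652 and 635 in mutants (log2 fold change -0.28), and *adam10a*, with 1691 and 1803 in wild types against 1634 and 1535 in mutants (log2 fold change -0.14), were not called. Proteases of both families release membrane-bound chemokines and cytokines in mammals. Among listed leukocyte markers, 3 of 10 macrophage genes and 2 of 7 tested neutrophil genes were called lower, beside 7.44% of all tested genes. The same held for 1 of 6 tested T cell genes and 1 of 3 tested B cell genes. No other gene of these lists was called, and *mmp9*, *lck* and *zap70* overlapped between genotypes. The part of leukocytes in the values of the signalling genes was not tested.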

How the data were processed

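Bulk RNA-seq of 4 single ventricles was used, with genotype and replicate number as the sample records give them. As the methods of the study state, the authors trimmed reads with Trimmomatic 0.39, used STAR 2.7.9a for alignment to danRer11 with Ensembl release 104, and ran featureCounts 2.0.2 per gene. Reads inside more than 1 gene or with more than 1 alignment were dropped, which can lower or redistribute the values of tandem copies. The authors deposited normalized counts (the unit is a score here), made by dividing each count by the size factor of its library from DESeq2 1.30.0 and rounding to whole numbers. Library sizes estimated from the rounding lay between 4016600 and 4490457 counts, so precision is limited by counting error for low genes and by 2 ventricles per genotype for all genes. No count test was run, because whole counts could not be recovered from the rounded values.

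Normalized counts were transformed to log2(value + 1), and the 16065 genes with a mean of at least 10 were fitted with limma 3.58.1 in R 4.3.3 (trended empirical Bayes with 5.33 prior degrees of freedom), with Benjamini-Hochberg adjustment over all of them. Tables and figures used Python 3.11.15. The test was checked on simulated counts, drawn around the mean of each gene with a spread set in advance and not taken from the ventricles. The genes changed in it all lay well above the minimum mean. It called 45.1% of genes lowered 2-fold and 56.5% of genes raised 2-fold. For 4-fold changes it called 92.2% of the lowered and 100% of the raised genes, and 5.73% of all calls were false. These rates need not hold for the chemokine genes, whose median level was 52.4 beside 153 for all tested genes. Their wild types also differed by at least 2-fold in 34.8% of genes, beside 8.90%. A gene without a call can therefore still differ by 2-fold or more. Chemokine genes, signalling genes and cell markers were matched by symbol, and 2 symbols shared by 2 genes each were kept apart by Ensembl identifier. The genes and lists were chosen with earlier results of these data known. Every chemokine gene with a mean of at least 10 was named, and lower ones were named where the genotype means differed by at least 10 or where they complete a ligand or receptor group, and were otherwise counted or given by their range.

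The replicate numbers belong to different fish, and nothing in the records ties same-numbered ventricles together. Alternatives were pseudocounts of 0.1 and 5, no minimum or one of 50 for the mean, an untrended limma fit, scaling by total, upper quartile or trimmed mean, a replicate block, a fold limit of 1 on the log2 scale and leaving out each ventricle. Cyclic loess normalization was added after seeing the data. No sequence of these genes was used here.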

Additional observations from a re-analysis of the deposited data

How the results depend on the processing

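The numbers of calls depended on the minimum mean and on each ventricle. Without the minimum, 0 chemokine genes were lower and 0 were higher, as were 0 signalling genes and 0 of all genes in either direction, with 5015 of 20984 genes and 14 of the 69 chemokine genes at an unadjusted limma p-value under 0.05 and a smallest adjusted p-value of 0.0518. Leaving out any 1 ventricle also gave 0 in each of these counts (range 0 to 0), with 7 to 15 chemokine genes and 2148 to 3323 of all genes at an unadjusted p-value under 0.05. In those fits 1 ventricle stands alone and is assumed to vary like the others. With a minimum mean of 50, 1 chemokine gene was lower (*cxcl8a*), as *cxcr3.1* and *cxcr1* fell under the minimum. Rescaling to the upper quartile gave 5 lower chemokine genes, with the first *ccr2* gene and *cxcr3.2* added. A pseudocount of 5 and rescaling to the same total or by a trimmed mean also added the first *ccr2* gene. With a pseudocount of 0.1 or cyclic loess, *cxcr1* was not called. Without the trend, 0 chemokine genes were higher, 4 signalling genes were lower and 0 higher, and 461 of all genes were lower and 82 higher. Rescaling to the same total or by a trimmed mean gave 2 higher signalling genes. A limit of 1 on the log2 scale left 238 higher genes of all. The median of all genes moved by less than 0.1 on the log2 scale under every rescaling.

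With the replicate block, 3 chemokine genes were lower, *cxcr3.1*, *cxcl8a* and *ccr12a*, *cxcr1* lost its call, 1 was higher, 0 signalling genes were higher, and 740 of all genes were lower and 215 higher. Deviations of same-numbered ventricles correlated at -0.066, so the numbers did not pair the samples. Beside leaving out ventricles, the adjusted p-value lay between 0.00928 and 0.0613 for *cxcr3.1*, 0.0185 and 0.0673 for *cxcl8a*, 0.0328 and 0.0885 for *cxcr1*, and 0.025 and 0.0918 for *ccl39.5*.

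Under cyclic loess, the sign of the log2 fold change turned for *cxcl12a* (-0.060), *cxcl20* (0.23) and *ccl34a.3* (0.24). It turned for uncalled genes when ventricles were left out, with ranges of -0.70 to 0.34 for *ackr4a*, -0.35 to 0.62 for *ackr4b*, -0.21 to 1.56 for *ccl19a.1*, -0.26 to 0.93 for *ccl20b*, -0.14 to 0.30 for *ccl25b*, -0.17 to 0.15 for *ccl34a.3*, -0.29 to 1.29 for *ccl39.1*, -0.32 to 0.85 for *ccl39.3*, -0.16 to 0.29 for *ccl39.6*, -0.064 to 0.96 for *ccl44*, -0.15 to 0.73 for *ccr11.1*, -0.17 to 1.25 for the second *ccr2* gene, -0.25 to 1.09 for *ccr6a*, -0.89 to 0.35 for *ccr9a*, -0.34 to 0.47 for *cxcl12a*, -0.53 to 0.044 for *cxcl14*, -0.71 to 0.87 for *cxcl18a.1*, -0.99 to 0.88 for *cxcl20* and -0.22 to 0.48 for *cxcr4b*. The cause was not tested for any of these changes.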
